A study of Mus musculus with 6 samples.

Results

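Lysosomal hydrolases and membrane proteins are described here as 49 genes among the 15982 genes of the authors' deposited table. They were chosen by symbol from 50 names, of which Limp2 is another name of Scarb2 and adds no gene of its own. RNA came from primary mouse bone marrow-derived macrophages (BMMs), cells grown from marrow with the growth factor M-CSF. Control mice (Ctrl) gave 3 libraries, and mice with a deletion of the spindle checkpoint kinase gene Bub1 limited to myeloid cells (Bub1 cKO) gave 3. All 6 had 3 days of 20 ng/ml M-CSF, followed by 2 days in which 50 ng/ml RANKL, the cytokine that drives osteoclast formation, was added to 20 ng/ml M-CSF. The Cre driver, the deleted exons, and the sex and age of the animals are not stated in the labels used here. The labels do not say whether the libraries came from separate animals or cultures, and p-values reflect no more than library-to-library spread, possibly technical.

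Lysosomes are acidic organelles in which hydrolases break down proteins, glycans and lipids. Soluble hydrolases are made in the endoplasmic reticulum, tagged with mannose 6-phosphate and carried by sorting receptors, while glycosylated membrane proteins such as LAMP1 and LAMP2 line the organelle. Macrophages use lysosomes to digest what they engulf, and osteoclasts send lysosomal vesicles to the bone surface, where their enzymes are released.

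The authors' deposited table holds 1 expression value per gene and genotype, read here as TPM (transcript counts scaled to a fixed total), and values of single libraries were not used here. "Log2 change" below is the deposited value, which equals log2 of (Bub1 cKO + 1)/(Ctrl + 1) and is therefore too small for low-valued genes. The standard error (SE) belongs to the log2 change that the authors' test estimated, called here the test's own log2 change, and 95% intervals are taken from it. No SD or n from single libraries can be given. Because library preparation read the 3' ends of transcripts, values serve for comparing the same gene between genotypes. Levels were set against each other between genes only to filter, group and name genes. Sums weigh each gene by its value, and no order of level between genes is given as a result. The targeted gene Bub1 stood at 6.73 TPM (Ctrl) and 5.32 TPM (Bub1 cKO) per the authors' deposited table, with an adjusted p-value of 0.985, and 3' reads that lie outside the deleted exons check nothing. In the same table the 8 macrophage markers and 9 osteoclast markers examined all had means of at least 1 TPM. B-cell and T-cell markers with a row stood below 1 TPM in both genotypes, and the mast cell and basophil markers were not analysed here. In bulk RNA, fewer cells of a type and less RNA per cell cannot be told apart.

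No member passed the authors' adjusted p under 0.05, a threshold that 0.181% of all genes passed, none passed an adjusted p under 0.1 (0.275% of all genes), and none passed when p was adjusted again over genes whose mean reached 1 TPM (0.34% of them) or 10 TPM (0.717%). More members had a lower value in Bub1 cKO than a higher one: the deposited log2 change was negative in 35 and positive in 14 of the 49. That is 71.4% negative, beside 50.8% over all genes. The median log2 change of the members was -0.15, beside -0.01 over the 10881 genes whose mean reached 1 TPM, as 47 of the members' means did. At a nominal p (not adjusted for the number of genes) below 0.05 there were 9 members with lower values (Ctsc, Lipa, Ctsl, Grn, Scarb2, Lamp2, Lgmn, Man2b1 and Sort1) and 1 with a higher value (Neu1). Those 10 are 20.4% of the members, beside 4.83% of all genes, 2.46% with lower and 2.37% with higher values. Well-measured genes reach a small p more often: among genes whose mean reached 10 TPM, 8.32% did so, 4.01% lower and 4.3% higher, beside 8 lower and 0 higher of the 35 members at that level. These counts describe the list and carry no test of it.

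Summed over the members, the deposited values came to 7400 TPM (Ctrl) and 6910 TPM (Bub1 cKO), or 0.740% and 0.691% of the table, a ratio of 0.934. In 28 of the 49 members the 95% interval lay between -1 and 1, so that a 2-fold difference in either direction lies outside it, and in the other 21 it does not. The median SE of the log2 change was 0.130 for the 14 members whose mean reached 100 TPM, 0.274 for the 21 between 10 and 100 TPM and 0.560 for the 14 below 10 TPM.

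Markers of cell state and of other marrow cells were summed in the same comparison. The 9 osteoclast markers summed to 1975 TPM (Ctrl) and 2286 TPM (Bub1 cKO), with 8 of 9 log2 changes positive. The 8 macrophage markers summed to 2621 and 1234 TPM with 6 of 8 negative, and to 480 and 472 TPM without Lyz2. The 5 erythroid markers with a row summed to 19.6 and 358 TPM, all higher in Bub1 cKO and Alas2 at 0 in Ctrl. The 9 neutrophil markers with a row summed to 95.7 and 232 TPM, with Elane, Camp and Retnlg at 0 in Ctrl and 8 of 9 log2 changes positive. Ltf had the negative one (12.3 and 6.74 TPM), but its statistic was positive (0.22, SE 1.754), as were those of all 9. The 5 dendritic cell markers summed to 9.48 and 4.49 TPM with 4 of 5 negative, and for Itgax among them (5.34 and 1.69 TPM, p = 0.019 per the authors' deposited table) the statistic had the opposite sign to the log2 change. The 6 stromal cell markers summed to 2.29 and 2.76 TPM with 3 of 6 negative, and Pdgfrb was at 0 in Ctrl. Of these markers, Lyz2 (lower) and Hbb-bs, Hbb-bt and Cxcr2 (higher) passed the adjusted p under 0.05. Their part in the values of the lysosomal genes was not tested.

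**Figure D1:**
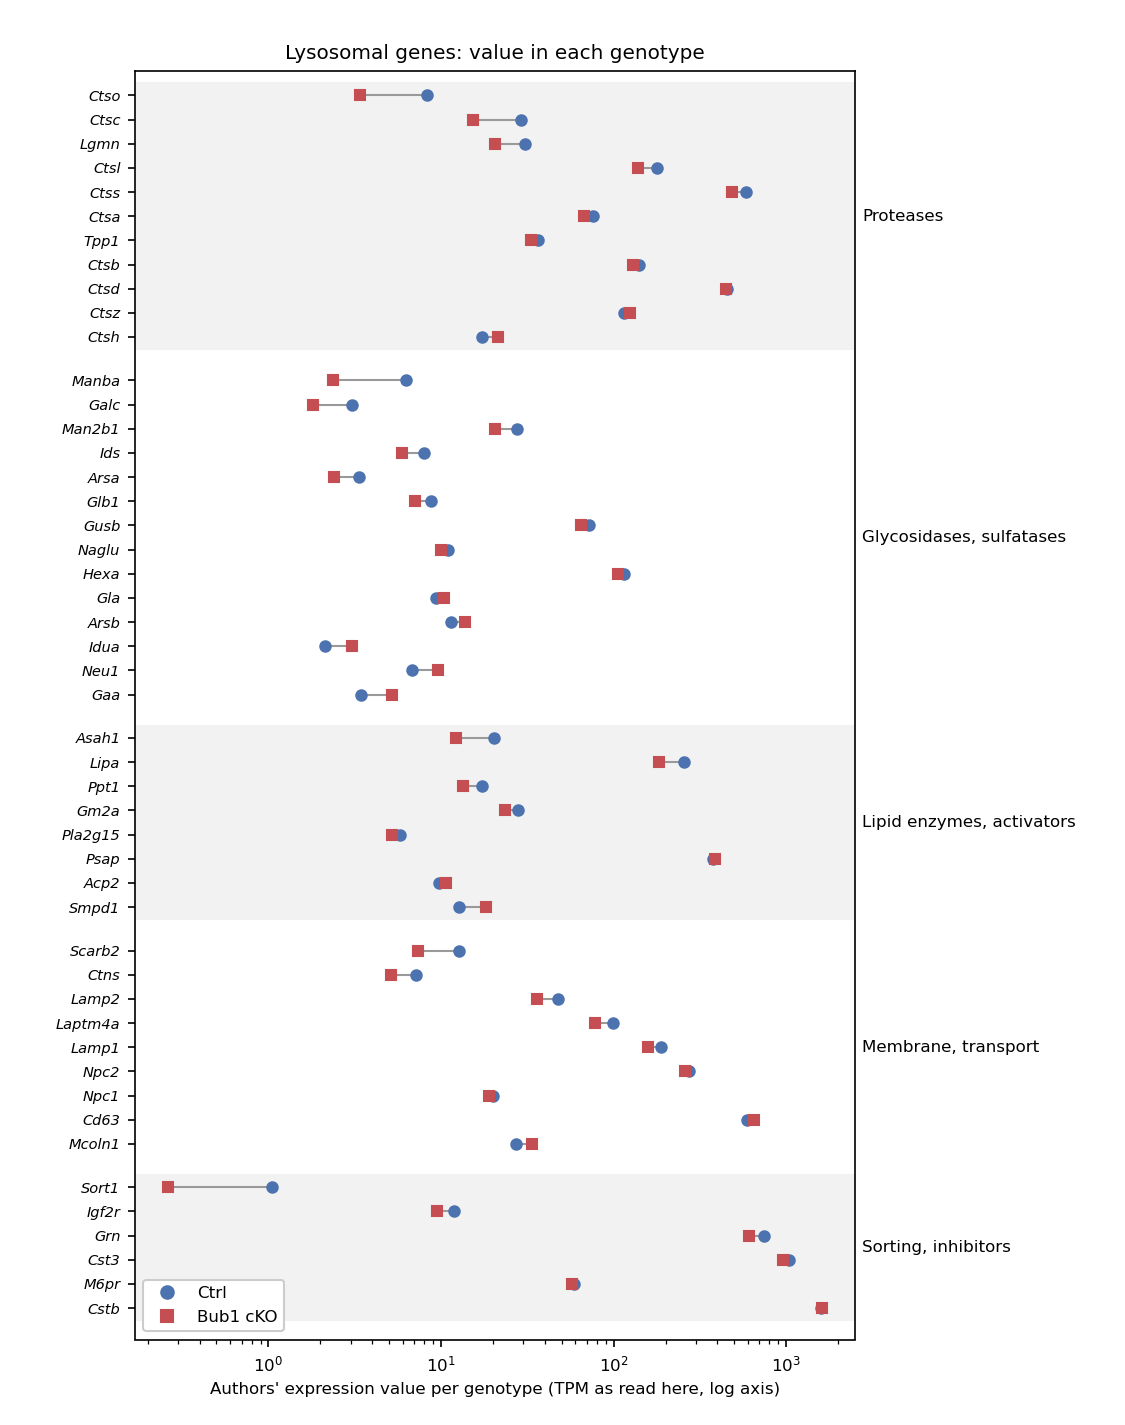
Authors' expression value per genotype (TPM as read here, log axis) for 48 of the members, grouped by role and ordered by log2 change within each group, with Ctrl as circles and Bub1 cKO as squares, 1 value per genotype and no replicate error. Ctse is left out because its Ctrl value is 0. In most members the Bub1 cKO square lies to the left of the Ctrl circle, as in Ctsc (29.0 and 15.2 TPM) and Lipa (256 and 182 TPM), and Neu1 (6.83 and 9.65 TPM) lies the other way.

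Shared promoter sequence is described before the single genes. The motif search does not depend on the expression values, but the stretches shown were chosen by them. Many lysosomal genes carry near their start a sequence called the CLEAR motif, which transcription factors of the TFEB family bind. Its core is the E-box CACGTG, in the extended form TCACGTG. RefSeq promoter windows (250 bases before to 50 after the start, GRCm38.p6) were found for 41 members, and both strands were searched. The extended E-box, which always contains the E-box, stood in the windows of 11 of 41 members (26.8%), beside 4.29% of the 27025 genes in the RefSeq table. Counted by window, these shares were 24.4% of 45 and 3.77% of 32851 windows. The motif is known from lysosomal genes, so these shares are background and no test. The median share of G and C bases was 56.3% in the member windows and 52.7% in all windows. The same letters stood in 4 of 22 genes (18.2%) of a list of other lysosomal hydrolases, 4 of 25 (16%) of other lysosomal membrane proteins and 11 of 30 (36.7%) of lysosome biogenesis and delivery, so the share was not highest in the members. The shorter E-box stood in 12 of the 41 members, the added one being Ctsl. The 11 members were Arsa, Ctsa, Ctsd, Gaa, Gla, Glb1, Igf2r, Lamp1, Lgmn, Mcoln1 and Naglu.

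The following stretches show the extended E-box in capitals, with its neighbouring bases, 5′ to 3′ as the gene is read (RefSeq, GRCm38.p6). Lgmn is shown because it is the member with both the motif and a nominal p below 0.05, and the others because they span lower, equal and higher values in Bub1 cKO.
Lgmn, chr12:102439119-102439159, minus strand: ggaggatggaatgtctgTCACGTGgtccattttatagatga
Igf2r, chr17:12769690-12769772, minus strand: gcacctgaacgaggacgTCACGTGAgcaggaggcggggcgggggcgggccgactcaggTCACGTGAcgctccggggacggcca
Lamp1, chr8:13159082-13159168, plus strand: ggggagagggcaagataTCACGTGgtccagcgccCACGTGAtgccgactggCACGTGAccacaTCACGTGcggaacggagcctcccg
Ctsa, chr2:164833743-164833801, plus strand: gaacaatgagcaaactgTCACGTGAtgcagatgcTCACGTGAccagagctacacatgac
Ctsd, chr7:142387902-142387943, minus strand: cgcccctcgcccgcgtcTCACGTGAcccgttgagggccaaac
Mcoln1, chr8:3500430-3500497, plus strand: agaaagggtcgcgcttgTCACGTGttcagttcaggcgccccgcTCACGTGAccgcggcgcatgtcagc
Gaa, chr11:119267805-119267845, plus strand: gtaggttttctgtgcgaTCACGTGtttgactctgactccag

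Lamp1 held 4 E-boxes within 87 bases, all of them extended and between positions -79 and 8 from the start, and Ctsa, Igf2r, Mcoln1, Gla and Ctsd held 2 each, those of Ctsd in separate stretches of which the nearer one is shown. Members with and without the motif were mostly lower in Bub1 cKO. Among the 11 with the extended E-box, 8 had a lower and 3 a higher value in Bub1 cKO, with a median log2 change of -0.17. Among the 30 with a window but without these letters, 22 were lower and 8 higher, with a median of -0.26. Of the 10 members at a nominal p below 0.05, 1 had the extended E-box, 8 had a window without it and 1, Sort1, had no window here.

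Ctsc and Lipa, the members with the smallest p, had neither form of the motif in their windows, which says only that these letters are not in these bases. The 250 bases before their RefSeq starts (GRCm38.p6) are shown for comparison, with no capitals because nothing matched.
Ctsc, chr7:88277835-88278084, plus strand: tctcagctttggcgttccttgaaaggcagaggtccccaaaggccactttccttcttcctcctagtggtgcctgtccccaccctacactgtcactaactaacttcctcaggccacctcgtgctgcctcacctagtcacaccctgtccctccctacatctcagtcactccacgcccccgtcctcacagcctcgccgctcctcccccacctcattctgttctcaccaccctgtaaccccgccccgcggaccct
Lipa, chr19:34527475-34527724, minus strand: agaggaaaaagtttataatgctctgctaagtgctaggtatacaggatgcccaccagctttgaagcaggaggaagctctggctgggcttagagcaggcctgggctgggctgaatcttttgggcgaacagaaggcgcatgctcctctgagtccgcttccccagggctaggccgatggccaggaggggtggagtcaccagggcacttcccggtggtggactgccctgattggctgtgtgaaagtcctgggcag

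**Figure D2:**
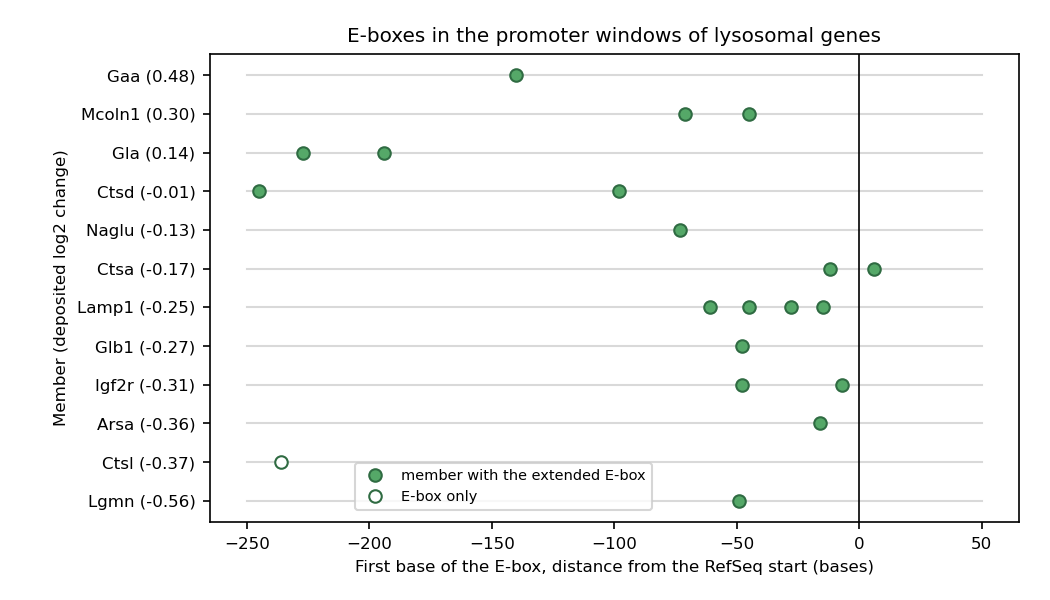
Position of each E-box (first base, x axis, in bases from the RefSeq start) in the promoter windows of the 12 members that hold one, with the deposited log2 change of Bub1 cKO against Ctrl beside each name and members ordered by it. Filled points belong to members with the extended form and the open point to Ctsl. Boxes near the start occur both in members with lower values, such as Lgmn (-0.56), and in members with higher values, such as Mcoln1 (0.30).

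Among the 12 proteases, 9 had a negative and 3 a positive log2 change, with a median of -0.15, and their values summed to 1673 TPM (Ctrl) and 1490 TPM (Bub1 cKO) (ratio 0.891). Ctsc encodes cathepsin C, the dipeptidyl peptidase that activates serine proteases of immune-cell granules (ENSMUSG00000030560.17, chromosome 7, 88278085 to 88310888 on the plus strand in the GENCODE M21 model with the same versioned ID, GRCm38). In the authors' deposited table it stood at 29.0 TPM (Ctrl) and 15.2 TPM (Bub1 cKO), with a log2 change of -0.89, an SE of 0.284, a nominal p of 0.001 and an adjusted p-value of 0.295. Its 95% interval ran from -1.46 to -0.35, and its p was the smallest of the 49. Ctsl, the cysteine protease cathepsin L (chromosome 13, 64359337 to 64370890 on the minus strand), stood at 179 and 139 TPM per the authors' deposited table, and its log2 change was -0.37, with an SE of 0.136, p = 0.007 and an adjusted p-value of 0.624. Lgmn is the asparaginyl endopeptidase legumain, which trims cathepsin precursors. It stood at 30.7 and 20.6 TPM per the authors' deposited table, and its log2 change was -0.56, with an SE of 0.298, p = 0.03 and an adjusted p-value of 0.923.

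The other 9 proteases did not reach a nominal p below 0.05. Ctss, the cathepsin that cuts the invariant chain of MHC class II, stood at 589 TPM (Ctrl) and 485 TPM (Bub1 cKO) (log2 change -0.28, p = 0.072, adjusted p = 0.985 per the authors' deposited table). The aspartic protease gene Ctsd stood at 452 and 451 TPM, a log2 change of -0.01 per the authors' deposited table, and its statistic had the opposite sign (0.014). For Ctsd the 95% interval ran from -0.27 to 0.28. Ctsb, Ctsa and Tpp1 had log2 changes of -0.10, -0.17 and -0.13, and Ctsz and Ctsh of 0.11 and 0.29, all with a nominal p above 0.2 per the authors' deposited table. Ctso was at 8.28 and 3.41 TPM per the authors' deposited table, which makes its log2 change -1.07, but its test's own log2 change was -0.13 with an interval from -1.62 to 1.37, so the columns of that table differ for this gene. Ctse, an aspartic protease, is listed at 0 in Ctrl and 0.168 TPM in Bub1 cKO, with an SE of 4.03 per the authors' deposited table, and says nothing about a difference.

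Glycosidases and sulfatases remove sugars and sulfate groups from glycoproteins, glycolipids and glycosaminoglycans, and the loss of single enzymes causes lysosomal storage diseases. Of these 14 genes, 9 had a negative and 5 a positive log2 change, with a median of -0.14 and sums of 288 and 263 TPM (ratio 0.911). Neu1, the sialidase that trims sialic acid from glycoproteins (chromosome 17, 34931253 to 34935953 on the plus strand), stood at 6.83 TPM (Ctrl) and 9.65 TPM (Bub1 cKO). Its log2 change was 0.44, with an SE of 0.336, p = 0.032 and an adjusted p-value of 0.937 per the authors' deposited table. The SE and p go with the test's own log2 change, which for Neu1 was larger, at 0.72, with an interval from 0.06 to 1.38. Man2b1, the lysosomal alpha-mannosidase, went the other way, at 27.6 and 20.5 TPM, with a log2 change of -0.41, an SE of 0.197, p = 0.033 and an adjusted p-value of 0.95 per the authors' deposited table. These enzymes act on sugar chains of glycoproteins, and their values pointed in opposite directions.

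The beta-hexosaminidase alpha-chain gene Hexa, at 115 and 106 TPM, and the beta-glucuronidase gene Gusb, at 72.2 and 64.9 TPM, had log2 changes of -0.12 and -0.15 per the authors' deposited table. Their intervals lay within -0.40 and 0.23. Manba, the beta-mannosidase gene, was at 6.30 and 2.38 TPM with a log2 change of -1.11, an SE of 0.592 and p = 0.105 per the authors' deposited table. The remaining 9 genes of this group (Gla, Glb1, Gaa, Galc, Idua, Ids, Naglu, Arsa and Arsb) ran from a log2 change of -0.51 in Galc, the galactocerebrosidase gene, to 0.48 in Gaa, the acid alpha-glucosidase gene, with p of 0.182 or more per the authors' deposited table.

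Lipid enzymes and their helper proteins had 5 negative and 3 positive log2 changes among 8 genes, with a median of -0.18 and sums of 727 and 653 TPM (ratio 0.898). Lipa is the acid lipase that frees cholesterol and fatty acids from lipoprotein lipids taken up by macrophages. It stood at 256 TPM (Ctrl) and 182 TPM (Bub1 cKO), with a log2 change of -0.48, an SE of 0.151, a nominal p of 0.002 and an adjusted p-value of 0.31 per the authors' deposited table. Its 95% interval ran from -0.77 to -0.18. Lipa made up most of the difference between the group's sums, while Psap, the precursor of the saposins that present lipids to hydrolases, stood at 377 and 387 TPM (log2 change 0.04 per the authors' deposited table).

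The ceramide and sphingomyelin enzymes pointed in opposite directions without reaching p under 0.05. Asah1, acid ceramidase, was at 20.4 and 12.2 TPM (log2 change -0.69, p = 0.058), and Smpd1, acid sphingomyelinase, at 12.8 and 18.2 TPM (log2 change 0.48, p = 0.099) per the authors' deposited table. Gm2a, the ganglioside activator, was at 28.0 and 23.5 TPM, a log2 change of -0.24 per the authors' deposited table. Ppt1, a protein depalmitoylase, Acp2, an acid phosphatase, and Pla2g15, a phospholipase, had log2 changes of -0.35, 0.12 and -0.13 with p above 0.4 per the authors' deposited table.

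Membrane proteins and transporters had 7 negative and 2 positive log2 changes, with a median of -0.25. Their sums were 1270 and 1248 TPM, and their ratio of 0.983 was the nearest to 1 among the role groups. Cd63, the tetraspanin of late endosomes and lysosomes, stood at 596 and 654 TPM (log2 change 0.13, p = 0.228 per the authors' deposited table). Scarb2, the receptor LIMP-2 that carries beta-glucocerebrosidase to the lysosome (chromosome 5, 92441314 to 92506833 on the minus strand), stood at 12.7 TPM (Ctrl) and 7.38 TPM (Bub1 cKO). Its log2 change was -0.71, with an SE of 0.311, p = 0.015 and an adjusted p-value of 0.793 per the authors' deposited table. Lamp2, a main glycoprotein of the lysosomal membrane with a part in autophagy, stood at 47.4 and 35.9 TPM, with a log2 change of -0.39, an SE of 0.2, p = 0.021 and an adjusted p-value of 0.861 per the authors' deposited table. Its relative Lamp1 stood at 187 and 157 TPM (log2 change -0.25, p = 0.133), and Laptm4a, a small membrane protein of late endosomes, at 98.8 and 77.6 TPM (log2 change -0.35, p = 0.051) per the authors' deposited table.

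The cholesterol carriers were near equal. Npc2, a soluble protein that hands cholesterol to Npc1, stood at 273 and 259 TPM, and Npc1 at 20.1 and 19.1 TPM, with log2 changes of -0.08 and -0.07 per the authors' deposited table. Their intervals ran from -0.27 to 0.14 for Npc2 and from -0.40 to 0.31 for Npc1. The cation channel gene Mcoln1 and the cystine exporter gene Ctns had log2 changes of 0.30 and -0.41 with SEs of 0.672 and 0.486 per the authors' deposited table, and neither reached p under 0.6.

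Sorting receptors, progranulin and protease inhibitors had 5 negative log2 changes and 1 positive one, with a median of -0.20 and sums of 3442 and 3257 TPM (ratio 0.946). Grn encodes progranulin, which is delivered to lysosomes and cut there into granulins (chromosome 11, 102430315 to 102437048 on the plus strand). It stood at 743 TPM (Ctrl) and 608 TPM (Bub1 cKO), with a log2 change of -0.29, an SE of 0.109, p = 0.009 and an adjusted p-value of 0.667 per the authors' deposited table. Sort1, the receptor sortilin that binds progranulin, was at 1.055 and 0.261 TPM with p = 0.037 and an adjusted p-value of 0.976 per the authors' deposited table. Its deposited log2 change was -0.70 and its test's own -2.12, with an SE of 1.016 and an interval from -4.11 to -0.13, so the size of its difference is poorly fixed. Grn and Sort1 had lower values in Bub1 cKO at the nominal p only, and the mean of Sort1 was 0.658 TPM, so little rests on it.

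The mannose 6-phosphate receptors and the cystatins did not reach a nominal p below 0.05. M6pr, the cation-dependent receptor, stood at 58.6 and 57.4 TPM, and Igf2r, the cation-independent receptor, at 11.9 and 9.45 TPM, with log2 changes of -0.03 and -0.31 and p of 0.93 and 0.092 per the authors' deposited table. Cst3, a secreted inhibitor of cysteine cathepsins, stood at 1041 and 962 TPM, and Cstb, a cytosolic one, at 1586 and 1619 TPM, with log2 changes of -0.11 and 0.03 per the authors' deposited table. The interval of Cstb ran from -0.17 to 0.26.

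**Figure D3:**
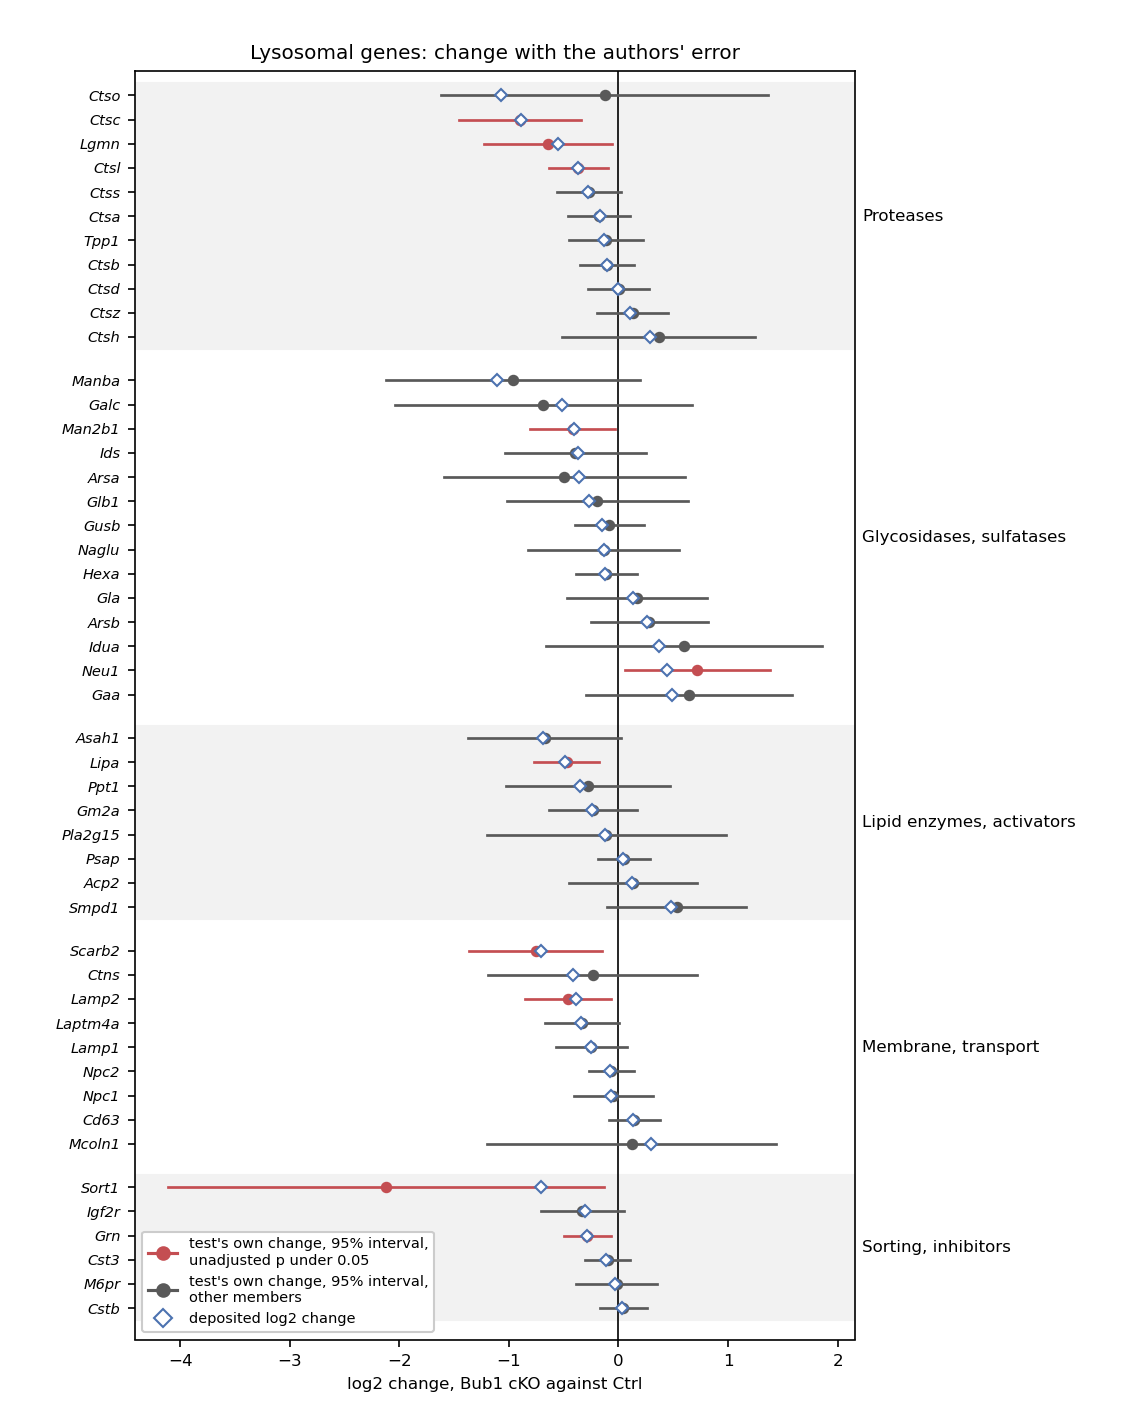
Log2 change of Bub1 cKO against Ctrl for 48 members by role, with the test's own log2 change and its 95% interval as filled points and bars (red where the unadjusted p is under 0.05) and the deposited log2 change as open diamonds. Ctse is left out because its interval spans the axis. Bars that miss 0 lie to the left in Ctsc, Lipa, Ctsl, Grn, Scarb2, Lamp2, Lgmn, Man2b1 and Sort1 and to the right in Neu1, and in Ctso and Sort1 the diamond lies more than 1 SE from the point.

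**Figure D4:**
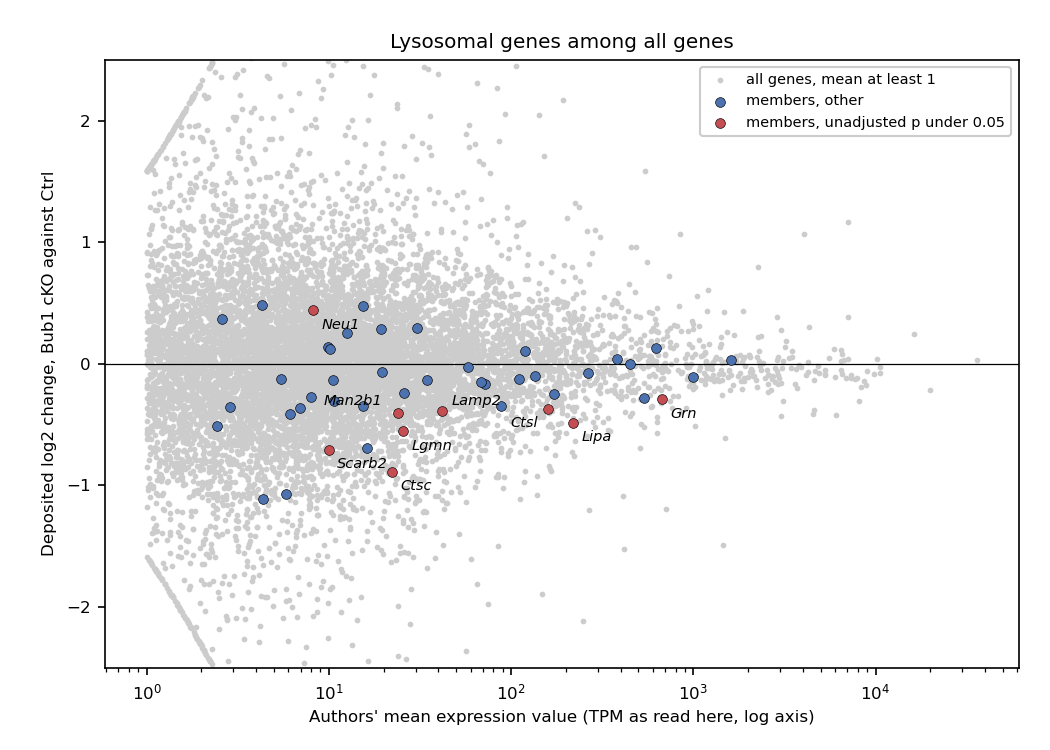
Deposited log2 change (y axis, shown from -2.5 to 2.5) against the authors' mean value (log axis) for the 10881 genes whose mean reached 1 TPM in grey and the 47 members among them in colour, red where the unadjusted p is under 0.05. The members sit within the cloud of all genes and more of them lie below 0 than above it (34 and 13).

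In 3 lists of lysosomal genes outside these 49, the medians of the deposited log2 change lay slightly above 0. Among the 33 genes examined in the list of other hydrolases, 20 had a positive and 13 a negative log2 change, with a median of 0.07. The counts for this list include Creg1, Pcyox1, Hgsnat and Sumf1, which are not hydrolases. At a nominal p below 0.05 there were 3 higher and 4 lower, or 21.2% of the list. The members' share was 20.4% and that of all genes 4.83%. Of the list, 1 gene passed the adjusted p, Lyz2. Lyz2, the lysozyme of macrophages, stood at 2141 and 762 TPM (log2 change -1.49, adjusted p = 0.00033), while Ctsk, the osteoclast protease that degrades collagen, stood at 537 and 696 TPM (log2 change 0.37, p = 0.008, adjusted p = 0.642) per the authors' deposited table. Prcp, a lysosomal carboxypeptidase, was at 20.1 and 8.15 TPM with p = 0.014 and an adjusted p-value of 0.775 per the authors' deposited table. The sums of this list were 4227 and 3140 TPM with Lyz2 (ratio 0.743) and 2086 and 2378 TPM without it (ratio 1.14). Lyz2 alone thus turns the direction of the sum. Lyz2 is also among the macrophage markers above, and Ctsk and Acp5 (531 and 639 TPM) are also among the osteoclast markers. Their values enter both the marker sums and the sums of this list, which are therefore not separate observations.

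Among 28 other lysosomal membrane proteins, 16 had a positive and 12 a negative log2 change, with a median of 0.07. For the 24 whose mean reached 1 TPM the median was 0.05. The median of the test's own log2 change was 0.0023 in these 24, with 12 positive and 12 negative statistics. At a nominal p below 0.05, 1 was higher and 4 were lower, or 17.9% of this list. The smallest p belonged to Gpnmb, a glycoprotein of macrophage and osteoclast lysosomes (443 and 361 TPM, log2 change -0.29, p = 0.003), Sidt2 (4.02 and 1.25 TPM, p = 0.003) and Mfsd8 (2.03 and 0.21 TPM, p = 0.008) per the authors' deposited table. Their adjusted p lay between 0.435 and 0.642, and the 1 higher gene was Cd68, at 260 and 306 TPM, which is also among the macrophage markers. Among 36 genes of lysosome biogenesis and delivery, 20 were positive and 16 negative, with a median of 0.04. Here 0 were higher and 3 lower (8.33%) at a nominal p below 0.05. Those 3 were Rragc, a GTPase of nutrient sensing at the lysosome (30.1 and 22.8 TPM), Ap3b1, an adaptor subunit (23.6 and 13.9 TPM), and Lrp1, an endocytic receptor (17.1 and 15.8 TPM), with p of 0.021, 0.037 and 0.045 per the authors' deposited table. For Ap3b1 and Lrp1 the p goes with the test's own log2 changes of -0.46 and -0.34, beside deposited ones of -0.72 and -0.105. The TFEB family was added for its role. Tfeb stood at 8.13 and 6.75 TPM, Tfe3 at 9.85 and 10.2 TPM and Tfec at 10.8 and 14.2 TPM. Mitf, which is needed in osteoclasts, stood at 20.4 and 32.8 TPM (p = 0.104 per the authors' deposited table). That p goes with the test's own log2 change of 0.34, smaller than the deposited 0.66. No adjusted p of these 4 TFEB family genes was under 0.985 per the authors' deposited table. Whether the members differ from these lists was not tested.

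**Figure D5:**
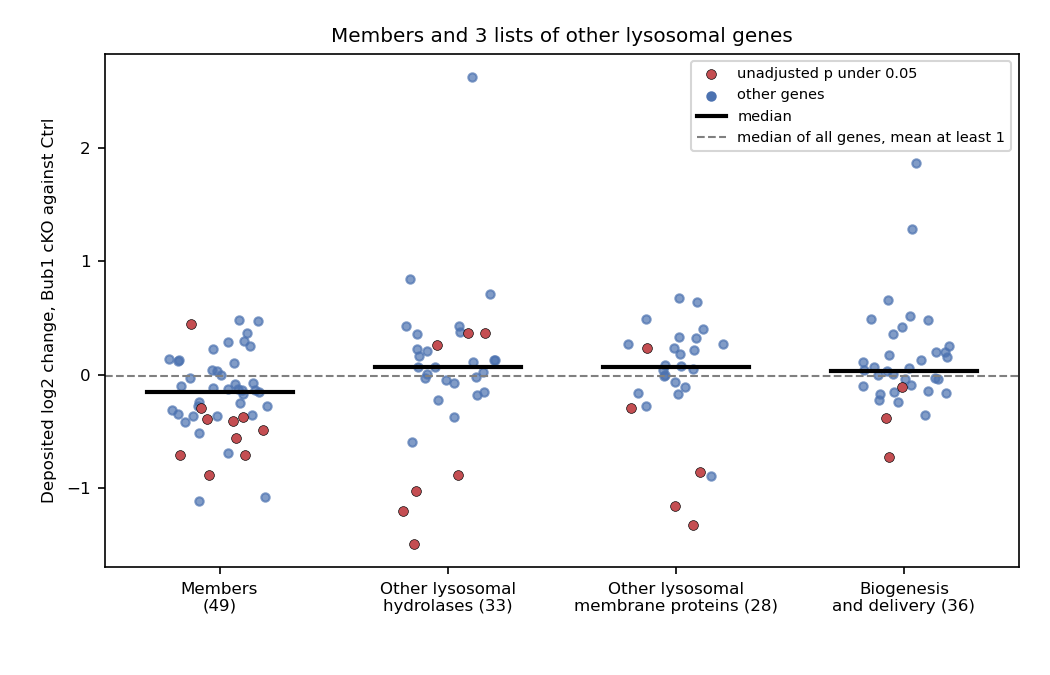
Deposited log2 change (y axis) of each gene in the 49 members and the 3 lists of other lysosomal genes, with red points for a nominal p below 0.05, black bars for list medians and a dashed line for the median of all genes whose mean reached 1 TPM. The members' bar (-0.15) lies below the dashed line and those of the other lists (0.07, 0.07 and 0.04) above it. Genes below 1 TPM are left out of the dashed line but not of the bars.

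On chromosome 2, which carries Bub1, lie the members Acp2, Cst3, Ctsa and Ctsz, and none of these 4 reached a nominal p below 0.05. Ctss and Glb1 share bases with another listed gene on their own strand (Hmgb1-ps5 and Tmppe, both under 4 TPM), and 9 more members overlap a gene on the opposite strand, among them Ppt1, with Cap1 (185 and 166 TPM), and Npc1, with Rmc1 (9.20 and 28.5 TPM). The strand setting of the authors' counting is not stated in the labels used here, so reads of such neighbours cannot be told apart.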

How the data were processed

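The 6 libraries, 3 Ctrl and 3 Bub1 cKO, took in 25 ng of RNA each and were prepared with QuantSeq chemistry, which reads 3' ends, per the labels' protocols. The authors deposited 1 table of their own comparison, which carries the name RaNA-seq, an online analysis pipeline, per the file headers. Aligner, genome build, annotation and statistical test are not named in the sources used here. The authors' deposited expression values, 1 per gene and genotype, carry no unit and were taken as TPM, normalized to a fixed total before deposit, because the columns sum to 999891 (Ctrl) and 999954 (Bub1 cKO). CPM would sum alike and cannot be told apart from it. The deposited log2 change was recomputed from the group values with a pseudocount of 1 and matched within 0.002 in all 15982 genes. The deposited SE and statistic are scores of the authors' test. The authors' p-value matched a 2-sided normal test of that statistic within 0.001 in 15974 genes and is 1 in the other 8, none a member. Depth per library is unknown, and the authors' SE stands for the precision.

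With 1 value per group no model was refitted, and the authors' adjusted p over the whole table was used as given. Calls were counted at 0.05. The test's own log2 change is the statistic times the SE, and its 95% interval adds 1.96 SE on each side. Counts at an unadjusted p used p recomputed from the statistic. Summaries used Python 3.11.15, pandas 2.3.3 and scipy 1.17.1, and the Benjamini-Hochberg step was tested on simulated data. Of the gene IDs, 14614 have the same version in GENCODE M21 (GRCm38), 45 of them members, and gene positions come from there. Promoter sequences come from RefSeq (GRCm38.p6), and 38 of 45 member windows read on into a transcript of the same gene.

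Members, role groups, lists and tests were chosen with earlier results of these data known. Named genes were members at an unadjusted p under 0.05, the 3 highest means per role group, members with a mean under 1 TPM, and up to 3 genes with the smallest p per other list. Further genes were named to account for every member or, for the TFEB family, for their role. Alternatives were other thresholds, filters, pseudocounts and the test's own log2 change.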

Additional observations from a re-analysis of the deposited data

How the results depend on the processing

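Of 82 alternative values for 27 results, 79 were labelled the same, 2 moved and 1 reversed. For single genes only the sign of the log2 change was compared. Another pseudocount cannot change that sign, so those values could not come out otherwise. For the median, a shift that kept the sign and stayed under 0.274, the members' median SE, counted as the same. The 79 is therefore no measure of robustness. No member passed the adjusted p at 0.1 or when p was adjusted again over genes whose mean reached 1 TPM or 10 TPM. Members at a small nominal p numbered 10 at 0.05 and 4 at the stricter cut of 0.01, over the same 49 members. Members with a higher value numbered 14 of 49 and 9 of the 35 whose mean reached 10 TPM, where the filter leaves fewer. The log2 change of Ctsd was -0.01 as deposited and 0.0020 by the test's own estimate, with an interval across 0. The members' median log2 change lay between -0.15 and -0.13 under the planned settings and was -0.20 without the 11 members that overlap another gene, a setting chosen after seeing the data. Leaving out replicates was not run, since the table has 1 value per group. No paired analysis was possible because the columns carry no replicate numbers. Little can be said of Ctse, Sort1, Ctso, Galc, Idua and Mcoln1, whose SEs exceed 0.6; the first 5 have means below 10 TPM and Mcoln1 has not.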

Other observations

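In the authors' deposited table some lysosomal genes have group values that differ widely beside a statistic near 0 or of the other sign. Among the members this holds for Ctso, with 8.28 and 3.41 TPM and a statistic of -0.17. Outside them Glb1l, a relative of the beta-galactosidase gene Glb1, was listed at 1.60 (Ctrl) and 15.0 TPM (Bub1 cKO), with a log2 change of 2.62 beside a statistic of -0.57, by the authors' deposited table. Statistic and log2 change have opposite signs in 1519 of all genes, of which Ctsd is the 1 member.

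Further genes of the list of other hydrolases that reached a nominal p below 0.05 were higher or lower as follows. Acp5, the tartrate-resistant phosphatase, was at 531 and 639 TPM (p = 0.015, adjusted p = 0.798) and Creg1, a glycoprotein of the endolysosomal pathway, at 171 and 221 TPM (p = 0.03, adjusted p = 0.923) in the authors' deposited table. Ggh, which removes glutamates from folates in lysosomes, and Pcyox1, which degrades prenylcysteines, were at 9.76 and 4.29 TPM and at 12.9 and 6.57 TPM (p = 0.022 and 0.021) in the authors' deposited table. None of these 4 passed the adjusted p, and they were chosen after their values were seen.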
